A study of Mus musculus with 12 samples.

Results

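The genes described here are 55 axon guidance genes of the mouse: semaphorins, their plexin and neuropilin receptors, Slits and their Robo receptors, and ephrins and their Eph receptors. They were chosen by gene symbol from a list of family members that was drawn up with earlier results of these data known, although the rule uses no measured value, and all 55 were found among the 52661 genes of the count table. A filter on low counts kept 52 of them for testing; Sema3c, Sema6d and Robo2 did not pass it. They were measured by RNA-seq of total RNA from the mouse embryonic stem cell line CGR8.

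The study transfected these cells stably with a puromycin-selectable expression vector and kept all of them in serum with leukemia inhibitory factor, the cytokine that maintains pluripotency. The vector carried wild-type netrin-1 (netrin-1 WT, n = 3), a netrin-1 point mutant named for the receptor Unc5b (unc5B MUT, n = 3), a point mutant named for the receptor neogenin (neo1 MUT, n = 3), or no insert (control, n = 3). The comparisons ask how expression differs with and without exogenous netrin-1, itself a guidance ligand, and with its interaction with 1 receptor altered. The labels do not say whether a group was a clone or a pool of transfected cells, or whether its 3 libraries came from separate cultures, so p-values may measure technical spread only.

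Libraries held 22256195 to 59735737 estimated counts, and 1 count was worth 0.0161 to 0.0558 CPM (the count scaled to library size, with TMM normalization). Ntn1 had 34.8 to 321 CPM in the 9 libraries with a netrin-1 transgene, against 0.774 to 15.4 CPM in the 3 control libraries. It was lowest in the library numbered 3 of every group, at 76.8 (netrin-1 WT), 34.8 (unc5B MUT), 56.4 (neo1 MUT) and 0.774 CPM (control). The other transgene libraries had 201 to 321 CPM, and the other control libraries 15.4 and 9.07 CPM. All 9 pluripotency markers examined passed the filter, with a summed level of 3416 to 4584 CPM per library. The libraries numbered 3 in each group stood apart from those numbered 1 and 2, and group differences are therefore given with and without the replicate number as a term of the model, and without the number 3 libraries. The number 3 libraries were also the shallowest, at 22256195 to 24736421 counts, against 32370919 to 59735737 in the others. Their TMM factors were 0.774 to 0.835, against 1.04 to 1.18. The part of depth in the differences between numbers was not tested.

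Semaphorins are secreted or membrane-bound ligands that steer growing axons and migrating cells, mostly by repulsion. Class 3 semaphorins bind a neuropilin, which pairs with a plexin that signals into the cell, while most other semaphorins bind plexins directly. Slits are secreted repellents read by Robo receptors. Ephrins are tethered to the surface of 1 cell and engage Eph receptor tyrosine kinases on its neighbour, with A-type ephrins held by a lipid anchor and B-type ephrins crossing the membrane.

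In edgeR with all 12 libraries, with or without the replicate number, 6 of the 52 tested genes passed in at least 1 comparison of groups; the share called among all genes is given with each comparison. The promoters of 4 of these are shown: Ephb4, the receptor that fell in neo1 MUT against control cells, and Nrp2, Plxnb1 and Robo1, the receptors that rose there. The sequences are the 250 bases before the RefSeq start on build GRCm38.p6, all on the plus strand, with each GC box (GGGCGG, or CCGCCC on the other strand) in capitals.
Ephb4: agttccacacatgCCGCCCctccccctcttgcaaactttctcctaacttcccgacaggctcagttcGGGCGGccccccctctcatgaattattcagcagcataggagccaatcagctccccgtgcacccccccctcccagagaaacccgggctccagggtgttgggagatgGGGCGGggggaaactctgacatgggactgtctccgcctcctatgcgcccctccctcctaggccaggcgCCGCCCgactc
Nrp2: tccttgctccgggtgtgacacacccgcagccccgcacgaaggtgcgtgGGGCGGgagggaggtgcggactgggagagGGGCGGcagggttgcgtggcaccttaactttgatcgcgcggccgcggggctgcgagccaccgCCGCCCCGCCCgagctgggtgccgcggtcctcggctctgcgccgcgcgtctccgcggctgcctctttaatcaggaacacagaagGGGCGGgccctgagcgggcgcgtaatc
Plxnb1: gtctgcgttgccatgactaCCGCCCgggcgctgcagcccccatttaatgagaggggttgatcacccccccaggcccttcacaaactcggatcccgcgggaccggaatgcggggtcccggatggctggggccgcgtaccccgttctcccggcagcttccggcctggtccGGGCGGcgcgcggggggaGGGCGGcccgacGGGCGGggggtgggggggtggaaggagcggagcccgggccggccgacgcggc
Robo1: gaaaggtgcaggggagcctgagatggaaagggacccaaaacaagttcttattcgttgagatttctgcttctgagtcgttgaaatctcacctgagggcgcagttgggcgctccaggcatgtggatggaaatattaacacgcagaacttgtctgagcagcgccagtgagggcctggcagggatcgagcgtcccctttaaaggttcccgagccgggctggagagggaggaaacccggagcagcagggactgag
The Ephb4 window (chr5:137349859-137350108) held 4 GC boxes and 64.0% G and C. The Nrp2 window (chr1:62703067-62703316) held 5 GC boxes, 2 of them overlapping by a base, and 72.4% G and C. The Plxnb1 window (chr9:109095186-109095435) held 4 GC boxes and 75.2% G and C. The Robo1 window (chr16:72662899-72663148) held no GC box and 56.0% G and C. A GC box occurred in 32.7% of all 32851 promoter windows of this length, whose median G and C content was 52.4%. The windows of Efnb1 and Sema5b, the other genes among the 6, also held no GC box. TATAAA was found in none of the 6 windows, against 12.4% of all windows, and CCAAT in those of Ephb4 and Efnb1, against 33.8% of all windows, both strands searched. These matches describe the letters and were not tied to any binding factor.

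The guidance genes covered a wide range of levels, with 27 of the 55 at a mean of at least 5 CPM over the 12 libraries and 13 under 1 CPM. Per kilobase of exon, Epha2, an ephrin-A receptor, was the highest member at 34.4 CPM per kb, above 91.6% of all genes tested. Plxnb2, a receptor for class 4 semaphorins, followed at 25.6 CPM per kb and Plxna1, a signalling partner of the neuropilins, at 25.1 CPM per kb. Ephb4, the receptor best known for binding ephrin-B2 in developing veins, stood at 11.4 CPM per kb, beside Epha4, which binds ephrins of both types, at 11.02 CPM per kb. The SD over the 12 libraries was 16.2 CPM per kb for Plxnb2, 15.2 for Plxna1, 3.92 for Ephb4 and 2.54 for Epha4. These SDs include differences between replicate numbers and between groups, and the order of these neighbours was not tested.

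**Figure D1:**
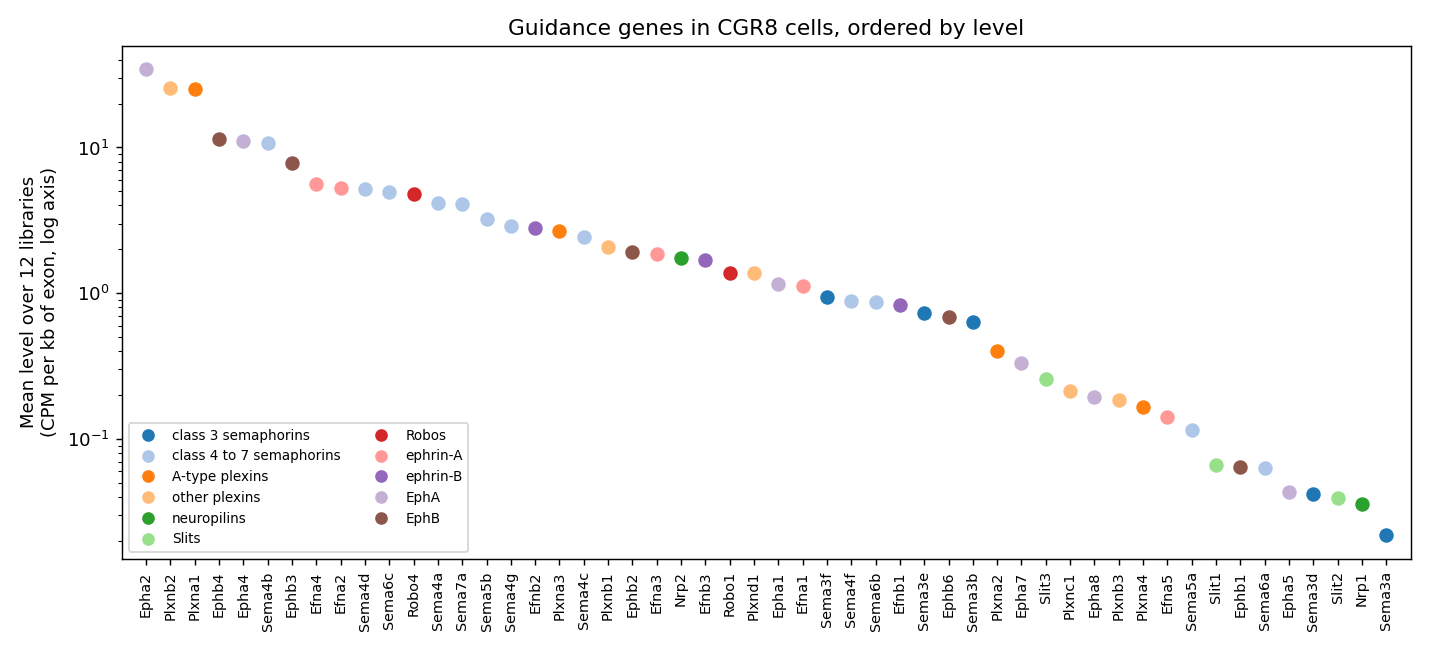
Mean level of the 52 tested guidance genes over the 12 libraries (CPM per kb of exon, log axis), ordered by level and coloured by family. Epha2, Plxnb2 and Plxna1 lead at 34.4, 25.6 and 25.1 CPM per kb, while Slits and class 3 semaphorins stay under 1 CPM per kb.

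Among the ligands, Sema4b, a membrane-bound semaphorin, led at 10.7 CPM per kb, and Sema3f, the secreted ligand of Nrp2, led the class 3 semaphorins at 0.946 CPM per kb. The ephrins were led by Efna4 at 5.62 CPM per kb and by Efnb2, the ligand of Ephb4, at 2.81 CPM per kb. Of the 11 families the Slits had the lowest leading member, Slit3, at 0.259 CPM per kb. Among the remaining receptors, Robo4, a Robo known for stabilising blood vessels, led its family at 4.81 CPM per kb, and Nrp2, the neuropilin that binds Sema3f, had 1.74 CPM per kb against 0.0356 CPM per kb for Nrp1.

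More guidance genes passed between replicate numbers, 4 libraries against 8, than between any 2 groups. In the edgeR fit with group and number as terms, 30 of 52 members (57.7%) differed between the number 3 libraries and those numbered 1 and 2, of which 13 were higher and 17 lower; among all genes tested the share was 62.8%, with 31.8% higher and 31% lower. Ephb1, an ephrin-B receptor, had 0.862 to 1.65 CPM in the 4 number 3 libraries, against 0.0146 to 0.178 CPM in the other 8. Plxna1 had 365 to 474 CPM in the number 3 libraries, against 103 to 166 CPM in the others (log2 difference 1.59 ± 0.09, SE; adjusted p = 5.97e-08). Neither gene's ranges overlapped.

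The opposite was seen for Sema3e, the semaphorin that binds Plxnd1 without a neuropilin. It had 0.924 to 1.27 CPM in the number 3 libraries and 5.34 to 16.2 CPM in the others, a log2 difference of -3.10 ± 0.27 (edgeR adjusted p = 2.85e-06). Sema3a, the prototype axon repellent, was also lower with number 3 by -3.00 ± 0.66 (adjusted p = 0.00235) but was under 1 CPM in every library. Ephb4 differed little by number, at 0.03 ± 0.13 (adjusted p = 0.864), whereas Sema5b, Robo1, Nrp2 and Efnb1, which return in the group comparisons, differed by 1.88, -1.25, -0.85 and -0.78 on the log2 scale, each past the threshold. No label says what the number stands for.

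**Figure D2:**
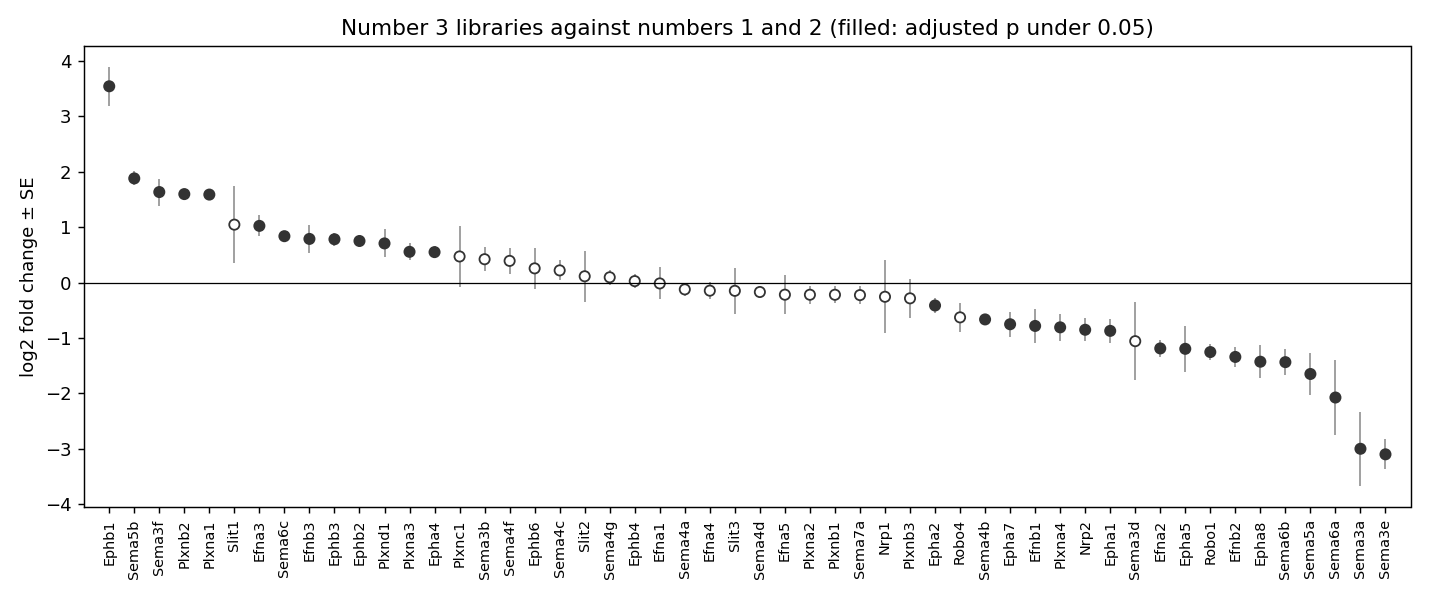
Log2 difference between the number 3 libraries and those numbered 1 and 2 for the tested guidance genes, from the edgeR fit with group and number as terms (lines, SE; filled points, adjusted p under 0.05). Ephb1 at 3.54 and Sema3e at -3.10 mark the extremes, and 30 of 52 members passed an adjusted p of 0.05.

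In edgeR with all 12 libraries, Ephb4 was the only guidance gene that passed without the replicate number in the model, and it was lower in neo1 MUT cells in all 3 comparisons of that group. It had 20.3, 20.2 and 30.6 CPM in neo1 MUT libraries, against 63.9, 66.7 and 55.4 CPM in netrin-1 WT, 68.5, 67.1 and 58.1 CPM in unc5B MUT and 61.5, 63.1 and 60.1 CPM in control libraries. The highest neo1 MUT library lay below the lowest library of every other group, and the other 3 groups overlapped one another. The gene (ENSMUSG00000029710) spans bases 137350109 to 137378669 of chromosome 5 (GRCm38, plus strand).

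Against control, the log2 fold change of Ephb4 in neo1 MUT cells was -1.38 ± 0.20 (SE; edgeR adjusted p = 0.0311), and with the replicate number in the model -1.38 ± 0.17 (adjusted p = 0.00185). Against netrin-1 WT it was -1.39 ± 0.20 (adjusted p = 0.0449; 0.00262 with the number), and against unc5B MUT -1.45 ± 0.20 (adjusted p = 0.0276; 0.00192 with the number). These 3 comparisons share the neo1 MUT libraries and are not independent. Without the number 3 libraries the changes were -1.63, -1.69 and -1.74 (adjusted p = 0.000173, 0.000337 and 0.000166, number in the model).

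With the number in the model, the call against control held with each of the 12 libraries left out in turn, at adjusted p up to 0.0142. Without the number it ended on leaving out any library other than netrin-1 WT 3 or neo1 MUT 3, with adjusted p up to 0.193, and it also ended without a filter on low counts (0.0762) and with only the 2 groups in the fit (0.27). The calls against netrin-1 WT and unc5B MUT were likewise kept in 12 of 12 such fits with the number, and in 1 and 2 of 12 without it. Ephb4 shares 33 exonic bases with Zan, a sperm protein gene on the opposite strand, and whether counting used strand is not given. Zan had 12.7, 8.33 and 6.18 CPM in neo1 MUT libraries, against 19.2, 24.2 and 6.03 CPM in control libraries, with a log2 fold change of -0.79 ± 0.29 (edgeR adjusted p = 0.149 with the number); it passed only against unc5B MUT (-1.15 ± 0.29, adjusted p = 0.0464 with the number), and its part in the Ephb4 values was not tested.

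**Figure D3:**
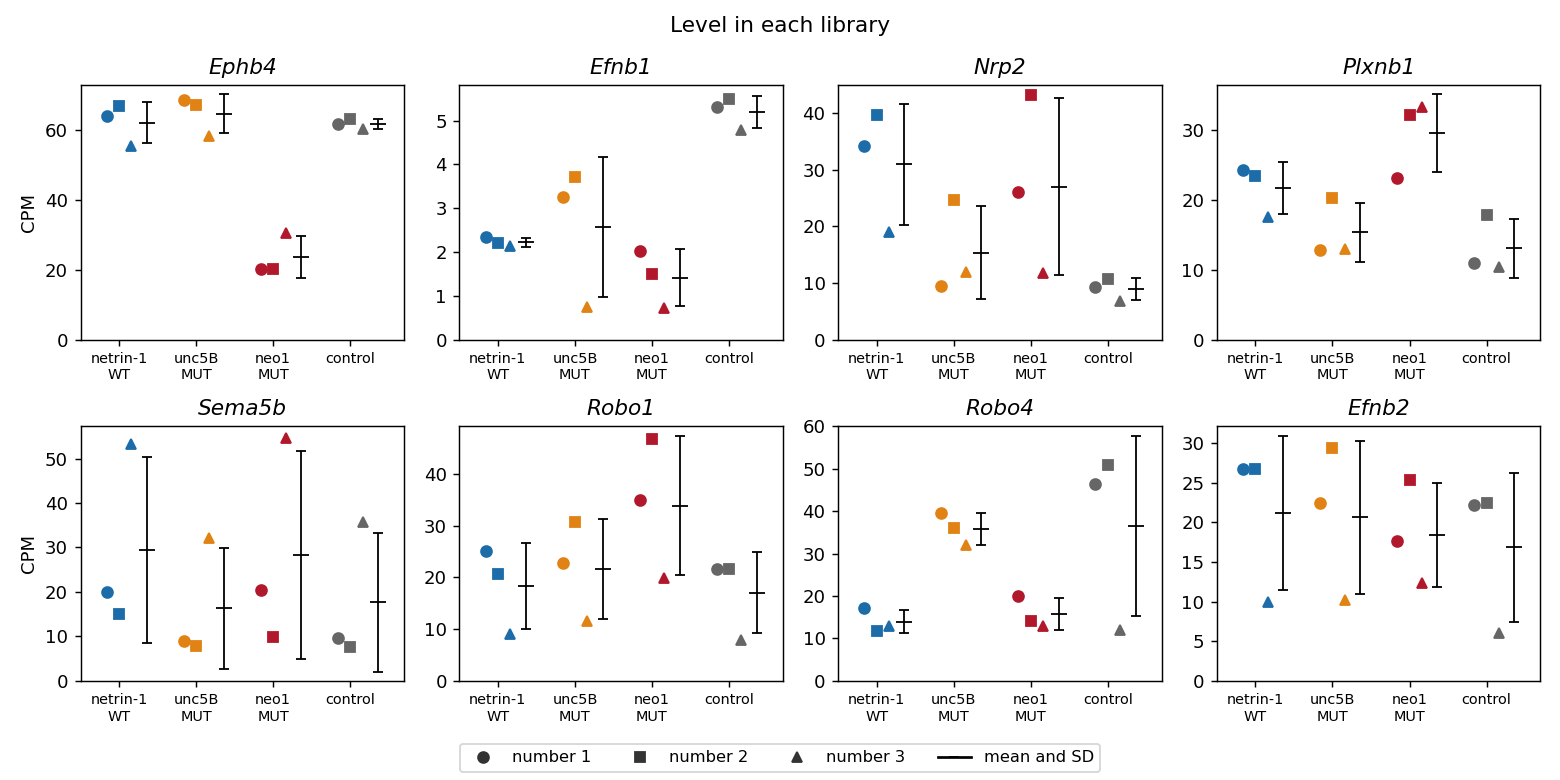
CPM of 8 guidance genes in each library, grouped as netrin-1 WT, unc5B MUT, neo1 MUT and control, with the replicate number given by the marker and the group mean and SD (n = 3) beside the points. The neo1 MUT points of Ephb4, at 20.2 to 30.6 CPM, all lie under those of the other groups, at 55.4 to 68.5 CPM.

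In neo1 MUT against control cells, edgeR without the number called 1 of 52 members, Ephb4, which was lower, against 0.128% of all genes tested (0.114% lower). With the number it called 6 (11.5%), 4 higher and 2 lower, against 5.26% of all genes (1.97% higher and 3.3% lower); at an unadjusted p under 0.05 the counts were 6 without the number and 14 with it (11.5% and 26.9%), against 7.26% and 20.2% of all genes. The receptors Plxnb1, Robo1 and Nrp2 and the ligand Sema5b rose, and the ligand Efnb1 fell, as did Ephb4, in the fit with the number. Of these, Ephb4 alone passed in edgeR without it, while DESeq2 without the number called Ephb4, Efnb1 and Plxnb1, 3 members, against 2.01% of all genes.

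Plxnb1, the receptor of Sema4d, had 23.1, 32.2 and 33.3 CPM in neo1 MUT libraries, against 10.9, 17.8 and 10.3 CPM in control libraries. All neo1 MUT libraries were above all control libraries, and the log2 fold change was 1.21 ± 0.21 (edgeR adjusted p = 0.0102 with the number, 0.212 without). The call ended without control library 1 (adjusted p = 0.0634), and without the number 3 libraries the change was 0.96 (adjusted p = 0.0181 with the number in the model, 0.135 without). In netrin-1 WT libraries Plxnb1 had 24.2, 23.3 and 17.5 CPM, which overlapped the control libraries. Against control its unadjusted edgeR p there was under 0.05 with and without the number, and it did not pass after adjustment. Its ligand gene Sema4d had 31.8, 42.6 and 33.2 CPM in neo1 MUT libraries, against 34.5, 42.5 and 34.4 CPM in control libraries, which overlapped closely (-0.05 ± 0.10, adjusted p = 0.819). Plxnb1 lies on chromosome 9, within 1 Mb of Dag1. Of its 36 neighbours at 5 CPM or more, 5 were also called higher and 2 lower in this comparison with the number. Among all genes tested 1.97% were called higher and 3.3% lower, and the part of the region in the Plxnb1 values was not tested. Plxnb1 shares 257 exonic bases with Gm7628, an antisense gene with 109 counts over the 12 libraries, against 8569 for Plxnb1.

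Robo1, the widely expressed Slit receptor, had 34.9, 46.7 and 19.96 CPM in neo1 MUT libraries, against 21.7, 21.6 and 7.93 CPM in control libraries. The groups overlapped, with the number 3 library lowest in both, while the neo1 MUT library was the higher one within each number. The log2 fold change was 1.04 ± 0.17 (edgeR adjusted p = 0.00913 with the number, 0.85 without), and it passed with each library left out, at adjusted p up to 0.0497. Without the number 3 libraries it was 0.90 (adjusted p = 0.0221 with the number in the model, 0.0581 without).

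Nrp2 had 26.1, 43.2 and 11.8 CPM in neo1 MUT libraries, against 9.23, 10.7 and 6.80 CPM in control libraries. The groups did not overlap, although neo1 MUT library 3 lay close to control library 2. The log2 fold change was 1.48 ± 0.27 (edgeR adjusted p = 0.0141 with the number, 0.39 without). It ended on leaving out control library 1 (adjusted p = 0.0638) or 2 (0.0817), or neo1 MUT library 1 (0.0658) or 2 (0.0626), but passed without the number 3 libraries when the number was in the model (1.74, adjusted p = 0.00757) and not when it was left out (1.80, adjusted p = 0.0574).

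Efnb1, a membrane-spanning ephrin encoded on the X chromosome, had 2.01, 1.504 and 0.725 CPM in neo1 MUT libraries, against 5.32, 5.50 and 4.80 CPM in control libraries. The groups did not overlap, at a low level, and the log2 fold change was -1.95 ± 0.40 (edgeR adjusted p = 0.021 with the number, 0.316 without). The call ended without control library 1 (0.0636) or 2 (0.0649) and without neo1 MUT library 1 (0.0572), 2 (0.0864) or 3 (0.0907), and held without all number 3 libraries (-1.62, adjusted p = 0.0066 with the number in the model, 0.0197 without). Efnb1 was also lower than control without overlap in the netrin-1 WT and unc5B MUT groups, with deposited log2 fold changes of -1.21 and -1.02. In edgeR with the number its unadjusted p was under 0.05 in both, and it passed in neither after adjustment. Efnb1 had 3 neighbours within 1 Mb at 5 CPM or more. In neo1 MUT against control with the number, 1 of these, Stard8, was called lower and 0 higher, against 3.3% and 1.97% of all genes. The log2 fold changes of the 3 ran from -1.75 to -0.06. Efnb2, the ephrin that binds Ephb4, had 17.6, 25.3 and 12.3 CPM in neo1 MUT libraries, against 22.1, 22.4 and 5.99 CPM in control libraries, and did not pass (0.27 ± 0.22, adjusted p = 0.531).

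Sema5b, a transmembrane semaphorin with thrombospondin repeats, had 20.5, 9.92 and 54.6 CPM in neo1 MUT libraries, against 9.73, 7.58 and 35.7 CPM in control libraries. The groups overlapped and both were highest in library 3, but neo1 MUT was higher within each number. The log2 fold change was 0.71 ± 0.18 (edgeR adjusted p = 0.044 with the number, 1 without), and only 2 of the 12 fits with a library left out kept the call: those without netrin-1 WT 3 or neo1 MUT 2, the others giving adjusted p of 0.0569 to 0.203. It also missed the threshold without the number 3 libraries (0.75, adjusted p = 0.0608, number in the model).

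In netrin-1 WT against control cells, edgeR without the number called 0 of 52 members, against 0.0997% of all genes, although the p before adjustment was under 0.05 for 5 members (9.62%), against 5.79% of all genes. The count was 1 (Nrp2) by DESeq2, which called 1.65% of all genes, and 0 by limma-voom, which called 0.123%. With the number edgeR called 2 (3.85%), Nrp2 and Sema5b, both higher, against 3.5% of all genes (1.74% higher), a share close to the background. Nrp2 had 34.1, 39.7 and 19.1 CPM in netrin-1 WT libraries, against the control values of 9.23, 10.7 and 6.80 CPM. No netrin-1 WT library reached down to a control library, and the log2 fold change was 1.76 ± 0.27 (adjusted p = 0.00681 with the number, 0.378 without). The call with the number held with each library left out, and without the number 3 libraries the change was 1.89 (adjusted p = 0.0042 with the number in the model, 0.0418 without).

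Sema5b had 19.95, 15.0 and 53.3 CPM in netrin-1 WT libraries, against 9.73, 7.58 and 35.7 CPM in control libraries. Its log2 fold change was 0.87 ± 0.18 (edgeR adjusted p = 0.0245 with the number, 1 without), and leaving out either of the control libraries 1 (0.133) and 2 (0.11), or of the netrin-1 WT libraries 1 (0.101) and 2 (0.129), ended the call. Without the number 3 libraries it was 1.01 (adjusted p = 0.0172 with the number in the model, 0.116 without). Sema3e, Sema4a and Robo4 were the other members with the most extreme values among those at 5 CPM or more in the fit without the number. None passed in edgeR with all 12 libraries: Sema3e was at 0.90 ± 0.30 (adjusted p = 0.14) and Sema4a, an immune semaphorin, at -0.36 ± 0.16 (adjusted p = 0.259), both with the number. Both passed without the number 3 libraries with the number in the model, Sema3e at 1.27 (adjusted p = 0.00946) and Sema4a at -0.57 (adjusted p = 0.0248), and neither passed with the number left out (0.0876 and 0.162).

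Robo4 had 17.1, 11.8 and 12.9 CPM in netrin-1 WT, 39.5, 36.03 and 31.9 CPM in the unc5B MUT libraries, 20.04, 14.2 and 13.0 CPM in neo1 MUT, and 46.5, 50.8 and 12.1 CPM in control libraries. Control library 3 thus lay with the netrin-1 WT and neo1 MUT libraries, while control libraries 1 and 2 lay above all others. With the number, its log2 fold change was -1.28 ± 0.34 in netrin-1 WT (edgeR adjusted p = 0.0705) and -1.13 ± 0.34 in neo1 MUT (adjusted p = 0.0857) against control, so it did not pass. Without the number 3 libraries it passed in both, at -1.78 (adjusted p = 0.00102) and -1.54 (adjusted p = 0.00255), number in the model. With all libraries and the number it also passed in DESeq2 and limma-voom.

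In unc5B MUT against control cells, no guidance gene passed: edgeR called 0 of 52 without the number, against 0% of all genes, and 0 with it, against 0.0285%. At an unadjusted p under 0.05 there were 0 members without the number, against 1.13% of all genes, and 2 with it (3.85%), Nrp2 and Efnb1, against 4.7%. DESeq2 also called 0 members, against 0.0522% of all genes without the number and 0.499% with it. Limma-voom called 0 as well, against 0% without the number and 0.038% with it. Of the 27 members at 5 CPM or more, 26 were within 0.5 of zero on the log2 scale, from Sema4g at -0.37 upward. Nrp2 was the exception, with 9.47, 24.7 and 11.9 CPM in unc5B MUT libraries against 9.23, 10.7 and 6.80 CPM in control libraries, at 0.71 ± 0.27 (adjusted p = 0.982 with the number). Its values overlapped, and unc5B MUT library 2 alone was well above the control libraries.

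Sema4g, a membrane-bound semaphorin, had 18.0, 21.7 and 24.3 CPM in unc5B MUT libraries, against 26.4, 26.8 and 29.4 CPM in control libraries. These did not overlap, but the difference of -0.37 ± 0.18 had an edgeR adjusted p of 1 with the number. Sema3e (0.22 ± 0.31) and Plxnd1, its plexin (-0.27 ± 0.34), were the other 2 named by their size in the fit without the number. The values given are with the number, and their SEs were larger than the values. A p over the threshold here does not show that the 2 groups were alike.

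**Figure D4:**
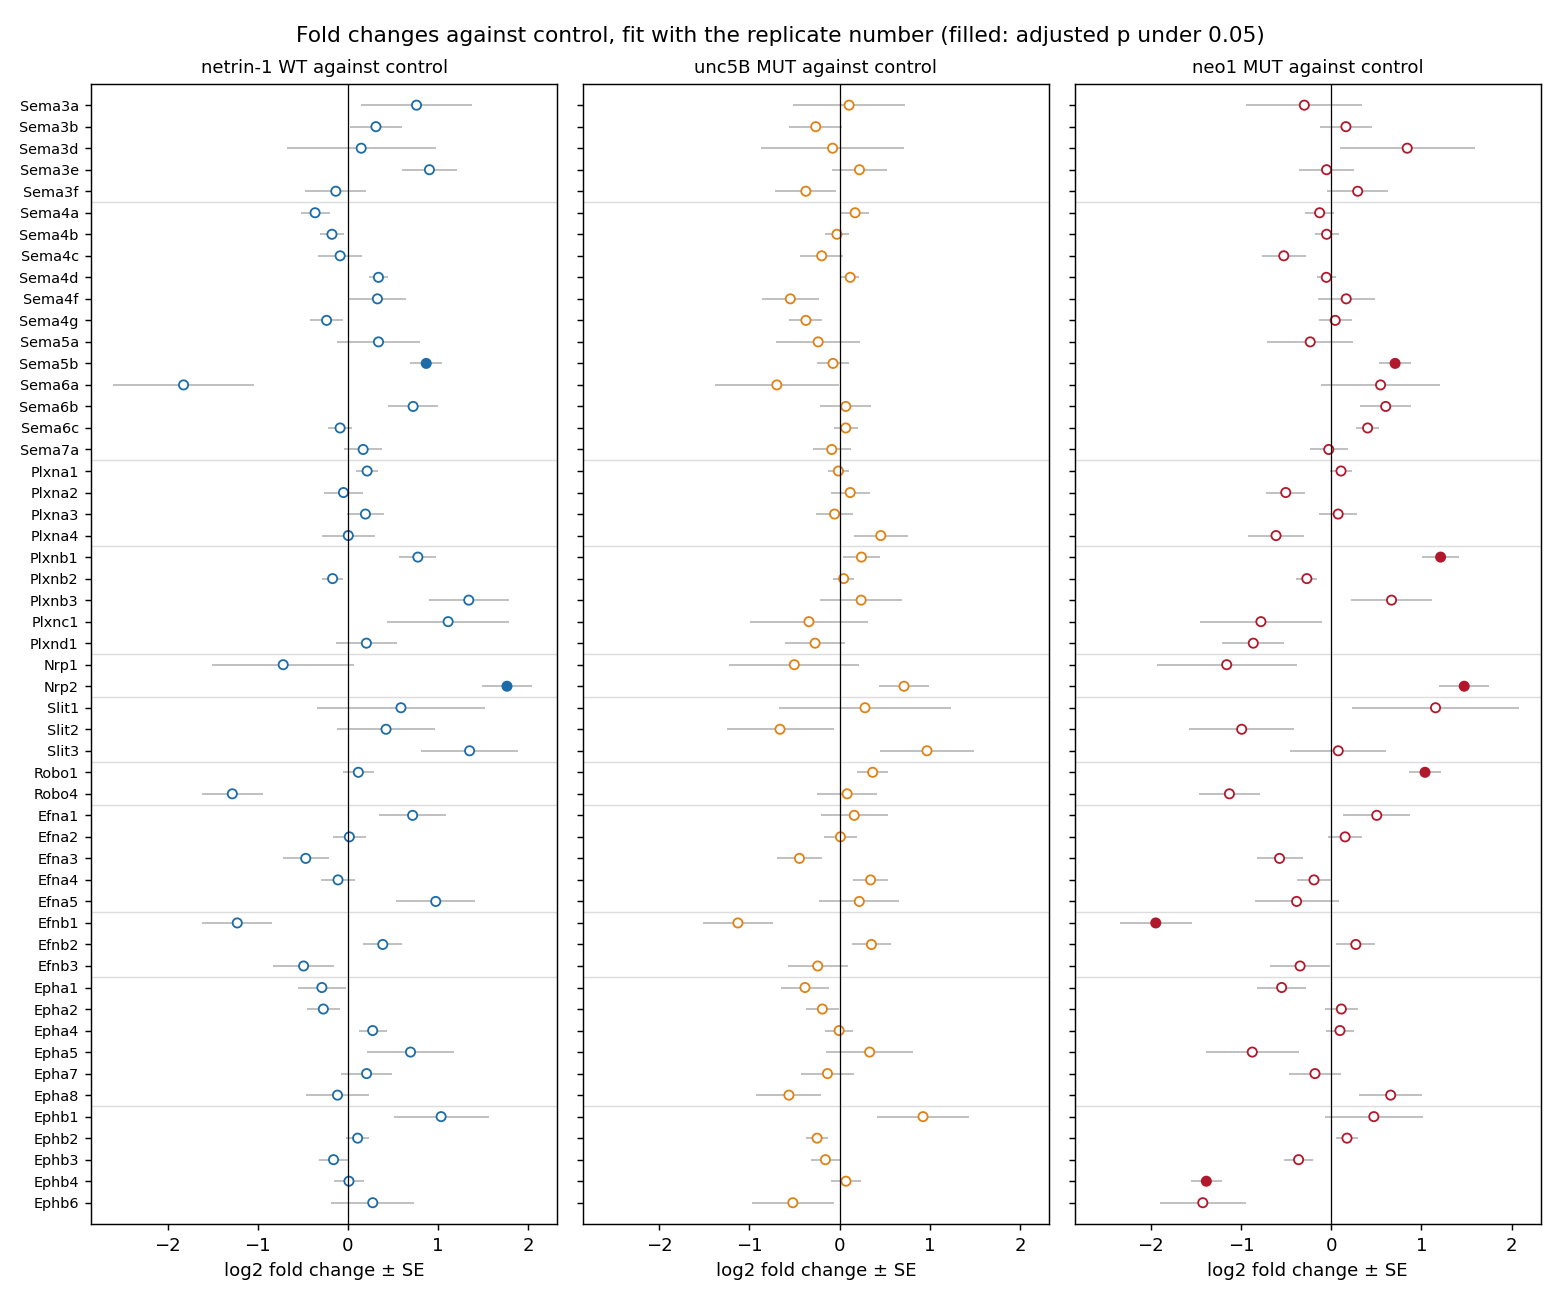
Log2 fold changes of the 52 tested guidance genes for the netrin-1 WT, the unc5B MUT and the neo1 MUT groups, each against control, from the edgeR fit with the replicate number (lines, SE; filled points, adjusted p under 0.05; families separated by grey lines). There are 2 filled points for netrin-1 WT, 0 for unc5B MUT and 6 for neo1 MUT, where Efnb1 at -1.95 and Nrp2 at 1.48 are the farthest filled points on either side.

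Between the transgenes, neo1 MUT against netrin-1 WT gave 1 call without the number, Ephb4, which was lower, against 0.076% of all genes (0.0712% lower). With the number it gave 2 of 52 (3.85%), 1 each way, against 1.99% (0.394% higher and 1.6% lower). The second was Robo1, which had 34.9, 46.7 and 19.96 CPM in neo1 MUT libraries and 25.2, 20.7 and 9.01 CPM in netrin-1 WT libraries. It was higher in neo1 MUT within each number, at 0.93 ± 0.17 (edgeR adjusted p = 0.0231 with the number, 1 without), although the groups overlapped. The call ended without netrin-1 WT library 2 (0.121) or 3 (0.0563) or neo1 MUT library 2 (0.0982) or 3 (0.0916), and without the number 3 libraries (0.0627, number in the model). Plxnd1 had 5.71, 6.27 and 5.27 CPM in neo1 MUT libraries and 11.9, 6.61 and 21.5 CPM in netrin-1 WT libraries, at -1.07 ± 0.35 (adjusted p = 0.173), and Sema6c, a membrane-bound ligand of A-type plexins, was at 0.49 ± 0.13 (adjusted p = 0.107), both with the number and neither past the threshold.

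In neo1 MUT against unc5B MUT cells, edgeR called 1 member without the number, Ephb4, which was lower, against 0.133% of all genes (0.119% lower). With the number it called 4 of 52 (7.69%), 3 higher and 1 lower, against 4.87% (1.59% higher and 3.28% lower). Besides Ephb4 these were Sema5b (0.78 ± 0.18, adjusted p = 0.033), Plxnb1 (0.97 ± 0.20, adjusted p = 0.026) and Robo1 (0.67 ± 0.17, adjusted p = 0.0491), all higher in neo1 MUT cells. Plxnb1 had 23.1, 32.2 and 33.3 CPM in neo1 MUT libraries and 12.9, 20.2 and 13.0 CPM in unc5B MUT libraries, without overlap. Robo1 had 34.9, 46.7 and 19.96 CPM in neo1 MUT libraries and 22.9, 30.7 and 11.5 CPM in unc5B MUT libraries, and Sema5b 20.5, 9.92 and 54.6 CPM in neo1 MUT libraries and 8.91, 7.90 and 32.1 CPM in unc5B MUT libraries. Both genes were higher in neo1 MUT within each number, with groups that overlapped. With a library left out, Ephb4 kept its call in 12 of 12 fits and the other 3 genes did not. Plxnb1 lost it without any 1 of the 3 neo1 MUT or 3 unc5B MUT libraries (adjusted p of 0.0518 to 0.155). Sema5b lost it without neo1 MUT library 1 or 3, any unc5B MUT library, netrin-1 WT library 2 or control library 1 or 2 (0.0502 to 0.204), and Robo1 without any of these or neo1 MUT library 2 (0.0602 to 0.264). With the number 3 libraries left out and the number in the model, Plxnb1 passed (0.76, adjusted p = 0.0414), and Sema5b (0.0532) and Robo1 (0.0755) did not; with the number left out Plxnb1 did not pass either (0.221). Nrp2 (0.76 ± 0.27, adjusted p = 0.135) and Robo4 (-1.21 ± 0.33, adjusted p = 0.0642) did not pass in edgeR with the number and all libraries, but passed without the number 3 libraries when the number was in the model (0.0379 for Nrp2 and 0.0067 for Robo4). With the number left out as well, Robo4 passed (0.0387) and Nrp2 did not (0.22).

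In unc5B MUT against netrin-1 WT cells, edgeR called 0 members without the number, against 0% of all genes, with 3 (5.77%) at an unadjusted p under 0.05, against 5.03% of all genes. By DESeq2 and by limma-voom without the number the count was also 0, against 0.864% and 0% of all genes. With the number it called 1 of 52 (1.92%), against 1.97% of all genes (0.964% lower). This was Sema5b, which had 8.91, 7.90 and 32.1 CPM in unc5B MUT libraries and 19.95, 15.0 and 53.3 CPM in netrin-1 WT libraries (-0.94 ± 0.18, adjusted p = 0.0278). It was lower in unc5B MUT within each number, and the call ended without any 1 of unc5B MUT libraries 1 (0.193), 2 (0.116) and 3 (0.0992), and of netrin-1 WT libraries 1 (0.119) and 2 (0.157), but held without the number 3 libraries when the number was in the model (-1.05, adjusted p = 0.0186) and not when it was left out (adjusted p = 0.128). Nrp2 (-1.05 ± 0.27, adjusted p = 0.0763), Robo4 (1.37 ± 0.34, adjusted p = 0.0684) and Sema4a (0.54 ± 0.16, adjusted p = 0.118) did not pass with the number, and all 3 passed without the number 3 libraries when the number was in the model, at 0.0219, 0.0035 and 0.0174. With the number left out as well, Robo4 passed (0.0232) and Nrp2 (0.165) and Sema4a (0.14) did not.

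Markers of primitive endoderm, an extraembryonic cell type that arises in stem cell cultures, moved with several of these groups. In edgeR with the number, all 12 markers were called lower in netrin-1 WT than in control cells, against 3.5% of all genes called. All 12 were also called lower in neo1 MUT than in control cells (5.26%) or unc5B MUT cells (4.87%). In unc5B MUT against netrin-1 WT, 11 were called higher (1.97%). In unc5B MUT against control 0 of the 12 were called (0.0285%), with a median log2 fold change of -0.56. The summed level of the 12 markers per library was 298 to 743 CPM (netrin-1 WT), 706 to 2053 CPM (unc5B MUT), 293 to 594 CPM (neo1 MUT) and 1167 to 2690 CPM (control). None of the 12 was at 0 in any group. In neo1 MUT against netrin-1 WT the same fit called 0 of the 12 markers lower and 1 higher, with a median log2 fold change of 0.34. Their part in the values of the guidance genes was not tested, and in bulk RNA fewer cells of a type and less RNA per cell cannot be told apart.

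Over the 52 tested guidance genes, the median log2 fold change with the number was 0.18 for netrin-1 WT, -0.02 for unc5B MUT and -0.04 for neo1 MUT against control, beside 0.01, 0.02 and 0.02 over all genes tested. Between transgenes it was -0.23 for unc5B MUT against netrin-1 WT, -0.17 for neo1 MUT against netrin-1 WT and -0.06 for neo1 MUT against unc5B MUT, beside 0.01, 0.01 and -0.0022 over all genes. Comparisons that share a group share its libraries. Called members were split between 28 tested ligands and 24 tested receptors: in neo1 MUT against control, 2 ligands (7.14%) and 4 receptors (16.7%) passed with the number, against 5.26% of all genes. In netrin-1 WT against control these were 1 ligand (3.57%) and 1 receptor (4.17%), against 3.5%, and in unc5B MUT against control 0 of either, against 0.0285%. In unc5B MUT against netrin-1 WT 1 ligand (3.57%) and 0 receptors passed, against 1.97%, in neo1 MUT against netrin-1 WT 0 ligands and 2 receptors (8.33%), against 1.99%, and in neo1 MUT against unc5B MUT 1 ligand (3.57%) and 3 receptors (12.5%), against 4.87%. The difference between ligands and receptors was not tested. In neo1 MUT against netrin-1 WT, the CPM values of the groups did not overlap for 11 of 52 members (21.2%), 2 higher and 9 lower. Among all 21053 genes tested the share was 8.31%, with 763 higher and 986 lower. The higher members were Sema6a and Epha2, and the lower ones included Ephb4, Ephb6, Efnb1 and Plxnd1. Sema6a was at a low level, with 0.444 to 1.64 CPM in neo1 MUT and 0.0509 to 0.337 CPM in netrin-1 WT libraries. In neo1 MUT against unc5B MUT the share was 19.2% against 11.7%, in unc5B MUT against netrin-1 WT 7.69% against 9.41%, and in the comparisons with control it was 9.62% against 9.25% for netrin-1 WT, 7.69% against 4.39% for unc5B MUT and 9.62% against 11.4% for neo1 MUT.

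Partners and effectors of these receptors were counted from a list of 55 gene IDs, of which 54 were tested. With the number, edgeR called 3 (5.56%) in neo1 MUT against control, against 5.26% of all genes, and 1 (1.85%) in either other group against control, against 3.5% for netrin-1 WT and 0.0285% for unc5B MUT. It called 0 in unc5B MUT against netrin-1 WT, against 1.97%, and 1 (1.85%) in neo1 MUT against netrin-1 WT and against unc5B MUT, where all genes gave 1.99% and 4.87%. These shares were near or below those of all genes, other than the single call in unc5B MUT against control. Dag1, the dystroglycan that binds Slit, was the one shared by the comparisons with control. Gipc1, an adaptor that binds semaphorin and neuropilin tails, averaged 216 ± 83.7 CPM in neo1 MUT and 135 ± 16.7 CPM in control libraries (0.60 ± 0.14, adjusted p = 0.0378). Pick1, a scaffold that binds ephrin and Eph tails, averaged 52.5 ± 20.5 CPM in neo1 MUT and 76.8 ± 31.9 CPM in control libraries (-0.54 ± 0.13, adjusted p = 0.0429). The list held Pick1 under more than 1 gene ID, and these values are those of the ID that passed. Srgap3, an effector in the Slit and Robo pathway, averaged 7.07 ± 1.98 CPM in neo1 MUT and 16.9 ± 0.652 CPM in netrin-1 WT libraries (-1.29 ± 0.19, adjusted p = 0.00695).

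The authors' deposited table of comparisons called Ephb4 lower in neo1 MUT against control (log2 fold change -1.45, adjusted p = 0.000369), against netrin-1 WT (-1.47, 0.000314) and against unc5B MUT (-1.53, 0.000227). The authors' deposited table gave 6 members in neo1 MUT against control, against 5.52% of its 20347 genes, and these were Ephb4, Efnb1 and Robo4 lower and Nrp2, Plxnb1 and Robo1 higher. In netrin-1 WT against control the authors' deposited table listed Nrp2 higher (1.82, adjusted p = 0.0257) and Robo4 lower (-1.38, adjusted p = 0.0282), against 4.42% of its genes. In unc5B MUT against control it listed 0 members, against 0.0491%. Between transgenes it listed Robo4 higher in unc5B MUT against netrin-1 WT (3.07% of its genes). Besides Ephb4 it listed Robo1 higher in neo1 MUT against netrin-1 WT (2.19%). Against unc5B MUT, Plxnb1 and Robo1 were higher and Robo4 lower in neo1 MUT (6.36%). Sema5b did not pass in the authors' deposited table in any comparison, with adjusted p of 0.0616 in netrin-1 WT and 0.103 in neo1 MUT against control.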

How the data were processed

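Total RNA of 12 libraries was sequenced after column purification, per the labels' protocols. The authors deposited estimated counts per Ensembl gene, a normalized table on a log2 scale (not used), and a table of 6 comparisons with, per the file headers, log2 fold changes, a signed fold score, p-values and adjusted p-values. The submitters' processing notes name STAR 2.5.2b, FastQC 0.11.5, DESeq2, Bowtie2, Bowtie and R 3.3.2, without their roles; which program estimated the counts, and the use of strand, are not given in the sources used here.

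The estimated counts were rounded and fitted with edgeR 4.0.16 in R 4.3.3 (TMM, filterByExpr, quasi-likelihood F-test, all 12 libraries in 1 fit, Benjamini-Hochberg over 21053 genes of 52661, threshold 0.05). The main model had the group only. SE is the log2 fold change divided by the square root of F, and CPM use TMM library sizes. SD is over n = 3 libraries, or over all 12 for levels per kilobase. Promoters came from a RefSeq table (GRCm38.p6), and names, coordinates and exon lengths from GENCODE M21 (GRCm38), which matched 52566 IDs. No file sequence was used. The tests were checked on simulated data. The simulation gave every group the same effect of the replicate number, as the model with the number assumes, so it cannot check that assumption.

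The numbers in the titles are shared by the groups. Deviations from the group means correlated between same-number libraries (0.58 to 0.88 over 18 pairs, minimum 0.1), so the paired fit adds the number as a block. Numbers 1 and 2 also deviated together (0.49 to 0.76), and number 3 opposite to both (-0.83 to -0.60). The deviations of the 3 libraries of a group sum to 0. A shift of number 3 shared by the groups therefore gives these signs by itself. The correlations show that shift and cannot tell whether numbers 1 and 2 were paired across groups. That pairing rests on the titles only.

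Members, gene lists and alternatives were chosen with earlier results of these data known. Named were all members past the threshold with or without the block, and the highest member per kilobase of each of 11 families. In each comparison the 2 highest and 2 lowest log2 fold changes among members of at least 5 CPM were also named, ranked in the fit without the block. Others named were partners of these or chosen after their values were seen. Alternatives were RLE, other filters, DESeq2 1.42.0, limma-voom 3.58.1, fewer libraries and each library left out. The settings limma-voom with the block and numbers 1 and 2 only with the block were added after seeing the data.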

Additional observations from a re-analysis of the deposited data

How the results depend on the processing

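The replicate block moved the count of guidance genes called from 0 to 2 in netrin-1 WT against control, 1 to 6 in neo1 MUT against control, 0 to 1 in unc5B MUT against netrin-1 WT, 1 to 2 in neo1 MUT against netrin-1 WT and 1 to 4 in neo1 MUT against unc5B MUT. The count in unc5B MUT against control stayed at 0 in every setting, and none called more than 0.499% of all genes there. In that order of 5 comparisons, DESeq2 with the block called 7, 9, 5, 7 and 10, limma-voom with the block 4, 7, 4, 2 and 9, and numbers 1 and 2 only, with the block, 12, 8, 10, 3 and 7. Of all genes these settings called 8.25%, 10.2%, 7.04%, 5.39% and 10.4% (DESeq2), 5.8%, 7.26%, 4.28%, 2.49% and 8.4% (limma-voom), and 16.3%, 10.5%, 13.4%, 2.95% and 2132 of 21223 genes (numbers 1 and 2), each above the edgeR share with the block. DESeq2 without the block called 1 in netrin-1 WT and 3 in neo1 MUT against control (1.65% and 2.01% of all genes). Without the number 3 libraries, group only, the counts were 3, 3 and 2 in netrin-1 WT against control, neo1 MUT against control and unc5B MUT against netrin-1 WT, and 2 in neo1 MUT against unc5B MUT (4.22%, 2.76%, 2.03% and 2.32% of all genes). No filter beyond 1 count, and only the 2 groups compared, each gave 0 in the 3 comparisons of neo1 MUT. Against control, netrin-1 WT and unc5B MUT in turn, all genes gave 0.0483%, 0.028% and 0.033% without a filter. With only the 2 groups they gave 0.0106%, 0.00532% and 0.0105%. The cause of these differences was not tested.

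Leaving out 1 library gave 0 to 9 calls in netrin-1 WT against control, 0 to 7 in neo1 MUT against control, 0 to 5 in unc5B MUT against netrin-1 WT, 0 to 2 in neo1 MUT against netrin-1 WT and 0 to 7 in neo1 MUT against unc5B MUT over the fits with and without the block, and 25 to 30 for number 3 against numbers 1 and 2. In the same fits the share of all genes called reached 8.43%, 8.65%, 8.29%, 2.31% and 9.23% at most, and was 54.4% to 60.6% for number 3. Of 720 leave-one-out values of the 30 named results, 8 changed direction. The log2 fold change of Sema5b ran from -0.0137 to 1.76 in netrin-1 WT against control, -0.21 to 1.71 in neo1 MUT against control and -0.10 to 1.75 in neo1 MUT against unc5B MUT. In unc5B MUT against control that of Sema3e ran from -0.42 to 0.94, with -0.000253 and -0.0119 among the fits with the block, and that of Plxnd1 from -0.63 to 0.0780. None of the other 330 values changed direction. Which members depth limits was not tested.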
